A study of Rattus norvegicus with 50 samples.

Results

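The rat Cyp2b genes encode cytochrome P450 enzymes of the 2B subfamily, and 6 of them were measured here: Cyp2b1, Cyp2b2, Cyp2b3, Cyp2b12, Cyp2b15 and Cyp2b21. They were taken by name, as every gene whose symbol begins with Cyp2b and a digit, and they were 6 of the 14506 genes with a value. Each was read by a single probe, so no choice between probes was needed. The data were liver RNA from 50 male Sprague Dawley rats about 3 months old, on Affymetrix Rat Gene 1.0 ST arrays with 1 array per animal. Of the 10 groups of 5 animals, 1 was an intact sham group, and the other 9 had a brain contusion made by controlled cortical impact and then saline vehicle, erythropoietin (EPO, the red cell growth factor) at 2500 IU/kg or anakinra, which blocks the interleukin-1 receptor, at 100 mg/kg. Livers of each of these 3 treatments were taken 24 h, 72 h or 7 days after the impact, as punches of the median lobe. The single sham group served every time point, has no time of its own in the labels and received none of the 3 treatments as far as the labels say.

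Cyp2b1 and Cyp2b2 are the classic phenobarbital-inducible P450 genes of rat liver. Their induction runs through the nuclear receptor CAR (gene Nr1i3), with overlap from PXR (Nr1i2), each bound to DNA together with a retinoid X receptor such as Rxra, and the enzymes take their electrons from the P450 reductase encoded by Por. Inflammatory cytokines such as interleukin-1 and interleukin-6 are known to lower P450 transcripts in hepatocytes. Cyp2b3 is a constitutive member of the rat liver subfamily, and Cyp2b12 is known from sebaceous glands of the skin.

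All 6 genes lie on chromosome 1 of the GRCr8 assembly. Cyp2b1 spans chr1:90646098-90669762, Cyp2b2 spans chr1:90722243-90736272 and Cyp2b3 spans chr1:90780468-90859852. Cyp2b21 follows at chr1:91013781-91042752, Cyp2b12 at chr1:91135294-91147094 and Cyp2b15 at chr1:91221865-91234169. Cyp2b21 is on the minus strand and the others are on the plus strand. RefSeq's gene table holds 8 Cyp2b genes in all, and Cyp2b14 and Cyp2b14l1 had no probe here and were not analysed here.

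The stretch just upstream of the start of each gene shows how alike the members are, and it is given for the inducible pair and for Cyp2b3, whose values behaved differently. The sequences are RefSeq's, build GRCr8, all on the plus strand, and each ends 1 base before the annotated gene. They cover chr1:90645869-90646097 for Cyp2b1, chr1:90722031-90722242 for Cyp2b2 and chr1:90780242-90780467 for Cyp2b3. Capitals mark TTGCATAA, an element of the kind bound by the liver factor C/EBP, and CATAAAAG, a TATA-like run of letters.
Cyp2b1: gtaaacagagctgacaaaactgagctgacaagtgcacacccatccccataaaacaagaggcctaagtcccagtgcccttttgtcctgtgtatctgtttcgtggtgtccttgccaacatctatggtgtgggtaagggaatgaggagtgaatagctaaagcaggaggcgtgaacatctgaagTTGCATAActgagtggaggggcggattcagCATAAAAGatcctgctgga
Cyp2b2: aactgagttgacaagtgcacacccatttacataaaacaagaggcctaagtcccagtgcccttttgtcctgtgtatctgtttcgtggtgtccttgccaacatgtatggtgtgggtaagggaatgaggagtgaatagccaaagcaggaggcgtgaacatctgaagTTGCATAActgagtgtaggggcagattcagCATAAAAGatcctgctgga
Cyp2b3: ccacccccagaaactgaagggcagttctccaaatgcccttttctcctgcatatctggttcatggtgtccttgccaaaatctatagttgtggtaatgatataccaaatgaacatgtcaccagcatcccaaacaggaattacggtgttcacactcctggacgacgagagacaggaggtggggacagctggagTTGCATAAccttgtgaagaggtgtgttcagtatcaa

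The Cyp2b1 and Cyp2b2 stretches matched at 204 of 212 aligned positions, an identity of 96.2%, whereas Cyp2b1 and Cyp2b3 matched at 57.1%. Cyp2b12 and Cyp2b15 were the next closest pair, at 84.8%, and the remaining pairs ranged from 54.3% to 75.3%. TTGCATAA was found 49 bases before the start of both Cyp2b1 and Cyp2b2, 36 bases before Cyp2b3 and 77 bases before Cyp2b21. Cyp2b12 and Cyp2b15 held TTGCTTAA in its place, 33 and 85 bases before their starts, which matches the looser form TTGCNNAA that also takes in every TTGCATAA. The 24 bases around the element in these 3 genes are shown with its letters in capitals, on the strand of the gene.
Cyp2b21: agctgaagTTGCATAAgtgaatgg
Cyp2b12: agctggagTTGCTTAAgtgagtag
Cyp2b15: agctggagTTGCTTAAgtgagtag

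Searched on both strands, TTGCATAA was present in 0.789% of 33469 rat promoters of 250 bases, TTGCNNAA in 9.22% and CATAAAAG in 0.941%. CATAAAAG was found in Cyp2b1, Cyp2b2 and Cyp2b21. The stretches of the members were 212 to 250 bases long, and a match describes the letters only.

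The arrays had medians from 6.66 to 6.89 on the deposited log2 scale. Hepatocyte genes were high in every sample, with albumin (Alb) between 13.89 and 14.04 and the liver factor Hnf4a between 11.39 and 12.09 in the 50 livers. The SD over all probes of an array was lowest, at 1.99 to 2.04, in 5 arrays: vehicle 24 h animal 3, vehicle 72 h animals 2 and 5, vehicle 7 days animal 3 and EPO 7 days animal 3. Differences of Cyp2b members named here at 72 h that moved by over 1.5 times without these 5 arrays are given both ways. Each animal is 1 sample, so the tests measure the spread between animals. The livers were bulk tissue, in which fewer hepatocytes and less RNA per hepatocyte cannot be told apart.

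Values of Cyp2b1 and Cyp2b2 differed widely between animals given the same treatment, and those of Cyp2b3 differed little. Cyp2b1 ranged from 6.88 to 10.24 over the 50 livers, a 10.3-fold span, and Cyp2b2 from 8.25 to 11.87, a 12.3-fold span. Cyp2b3 stayed between 12.10 and 12.65, a 1.46-fold span. The SD between animals within groups was 0.74 for Cyp2b1 and 0.65 for Cyp2b2, against a median of 0.17 over all genes. These ranked 26 and 39 of 14506 from the most variable. The SD of Cyp2b3 was 0.11, at percentile 4.01 among genes of all levels. Its mean level of 12.42 was at percentile 98.95, beside 76.69 for Cyp2b1 and 92.75 for Cyp2b2. How far so high a level limits the spread that an array can show was not tested. The SDs of Cyp2b21 (0.18) and Cyp2b15 (0.16) were near the median, and that of Cyp2b12 (0.13) was lower, at percentile 14.75.

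**Figure D1:**
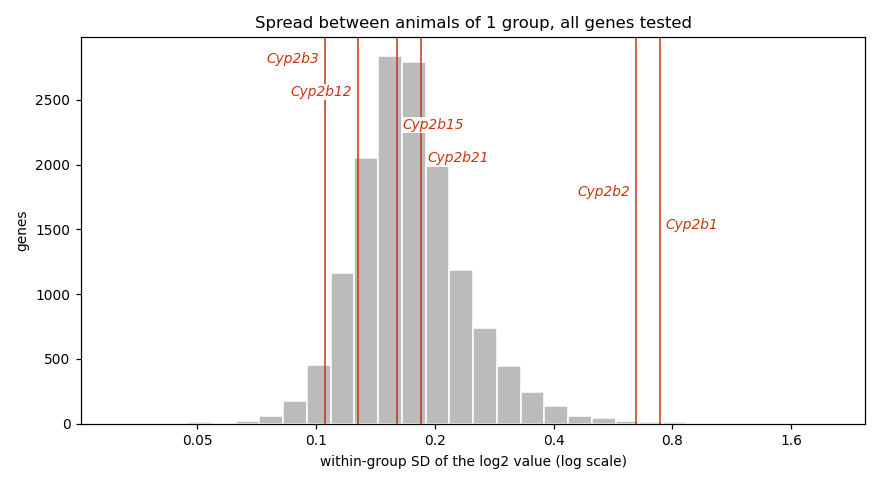
Distribution over 14506 genes of the SD between animals within groups, on a log axis of the log2-scale SD, with the number of genes on the vertical axis and a line for each Cyp2b gene. Cyp2b1 (0.74) and Cyp2b2 (0.65) lie in the right tail, Cyp2b3 (0.11) on the left side and the other 3 in the bulk.

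In sham livers Cyp2b1 was 8.67, 9.69, 9.46, 9.03 and 9.59, a mean of 9.29 ± 0.43 (SD, n = 5). Cyp2b2 in the same livers, in the same order, was 10.80, 10.47, 10.03, 11.17 and 10.95, with a mean of 10.69 ± 0.44 (SD, n = 5). Sham animals alone spanned 1.02 log2 units for Cyp2b1 and 1.14 for Cyp2b2. Over the 10 groups the mean of Cyp2b1 ran from 9.40 in EPO 24 h livers through sham, anakinra 72 h, anakinra 7 days, anakinra 24 h, vehicle 24 h, vehicle 7 days, EPO 72 h and EPO 7 days down to 8.06 in vehicle 72 h livers. That of Cyp2b2 ran from 11.05 in anakinra 72 h livers through EPO 24 h, vehicle 24 h, anakinra 24 h, sham, anakinra 7 days, vehicle 7 days, vehicle 72 h and EPO 7 days down to 9.62 in EPO 72 h livers. The highest and lowest group means were 1.33 apart for Cyp2b1 and 1.43 for Cyp2b2, beside SDs between animals of 0.74 and 0.65. No 2 groups next to each other in either order were farther apart than that SD, and the same held for Cyp2b3 and Cyp2b21. Sorting itself puts neighbours close together, so these small gaps do not show that the groups were alike. The limma F test over all 10 groups passed for 0 of the 6 genes at an adjusted p under 0.05, against 5.67% of all genes, with 4 of 6 under an unadjusted p of 0.05. Adjusted p-values ran from 0.0634 for Cyp2b15 and 0.0822 for Cyp2b3 to 0.329 for Cyp2b21. Without EPO 72 h animal 1, Cyp2b15 (adjusted p 0.0132), Cyp2b2 (0.0444) and Cyp2b3 (0.0483) passed. Cyp2b15 also passed without anakinra 7 days animal 1 (0.0403) or vehicle 7 days animal 2 (0.0468) or 3 (0.0427), and Cyp2b3 without anakinra 7 days animal 4 (0.0312).

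**Figure D2:**
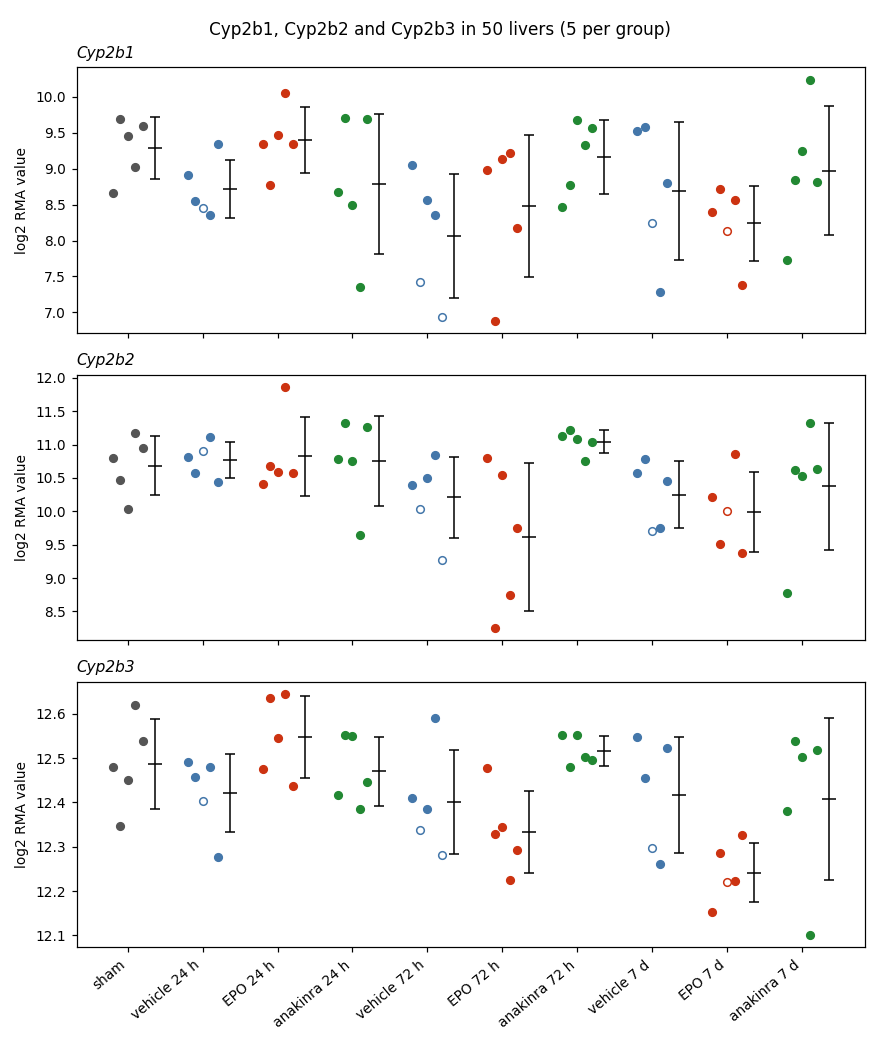
The log2 value of Cyp2b1, Cyp2b2 and Cyp2b3 in every liver, by group, with the mean and SD of 5 animals beside each group and open circles for the 5 arrays of lowest SD. Cyp2b1 and Cyp2b2 scatter over more than 3 log2 units, and the Cyp2b2 values of the 5 anakinra 72 h livers lie between 10.75 and 11.22.

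Vehicle livers were compared with sham livers. By the labels these differ in the impact and the saline, and sham has no matched time, so these cannot be told apart. Cyp2b1 was lower on average at each time, by most at 72 h, but no member passed the test at 24 h, 72 h or 7 days, where 0.827%, 0% and 0% of all genes passed. At 72 h Cyp2b1 was 9.06, 7.42, 8.56, 8.35 and 6.93, a mean of 8.06 ± 0.87 (SD, n = 5). Of these 5 livers 4 lay below every sham liver. The log2 difference was -1.22 (SE 0.44, 95% interval -2.11 to -0.34), or 2.34-fold lower, with an unadjusted p of 0.00764 and an adjusted p of 0.396 in limma. The lowest values, 7.42 and 6.93, came from the low-SD arrays 2 and 5, and without the 5 low-SD arrays the difference was -0.63 (adjusted p = 1). Their part in the result was not tested further. Differences of Cyp2b1 at 24 h (-0.57, 95% interval -1.45 to 0.32) and 7 days (-0.60, -1.48 to 0.28) had intervals that include 0.

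For Cyp2b2 the vehicle 24 h livers read 10.81, 10.57, 10.90, 11.12 and 10.45, all within the sham range. Its difference from sham was 0.08 (95% interval -0.69 to 0.86) at 24 h, -0.48 (-1.25 to 0.29) at 72 h and -0.43 (-1.21 to 0.34) at 7 days. Whether Cyp2b1 and Cyp2b2 differed from each other in this was not tested. Without the low-SD arrays the 72 h difference was -0.11 (limma adjusted p = 1). The other 4 members differed from sham by 0.13 log2 units or less at every time in vehicle livers. Vehicle 24 h livers did show other xenobiotic genes lower than sham. Among 38 measured targets of CAR and PXR, 4 fell and 1 rose, with a list median of -0.10 against 0.04 over all genes. In this comparison 0.827% of all genes passed in either direction. The 4 that fell were the aflatoxin aldehyde reductase Akr7a3 (-1.56, adjusted p 0.00696), the epoxide hydrolase Ephx1 (-0.70, 0.0110) and the glutathione transferases Gstm4 (-0.46, 0.00696) and Gstm1 (-0.35, 0.00487). Of 27 measured inflammatory genes 4 rose in the same livers, with none lower. These were the interleukin-1 receptor Il1r1 (0.93), the lipopolysaccharide-binding protein Lbp (0.93), the transcription factor Stat3 (0.68) and haptoglobin Hp (0.27), and 5 of 5 vehicle livers lay above every sham liver for each of them. Of 47 measured regulators of CAR and PXR signalling 2 rose and none fell, Dbp (1.58, limma adjusted p 0.0110) and Tef (0.64, 0.00192). Dbp was scattered in the vehicle livers, with an SD of 0.88 beside 0.15 in sham livers. The time of day at which livers were taken was not given, so its part in these 2 genes could not be tested. The part of any of these genes in the Cyp2b values was not tested.

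Next, each drug was set against vehicle at the same time. No member passed in any of these 6 comparisons. The shares of all genes that passed were 0.0276%, 2.72% and 0.365% for EPO at 24 h, 72 h and 7 days, and 0%, 0% and 0.0138% for anakinra. Over these and the 3 comparisons of vehicle with sham, 0 of 54 member tests passed and 6 had an unadjusted p under 0.05 in limma, with a smallest adjusted p of 0.109.

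With anakinra at 72 h, all 6 members were higher on average than with vehicle. Cyp2b1 in anakinra livers was 8.47, 8.78, 9.67, 9.33 and 9.57, and 3 of these lay above every vehicle liver. Its difference was 1.10 (95% interval 0.22 to 1.98, adjusted p 0.454). Cyp2b2 was 11.12, 11.22, 11.09, 10.75 and 11.04, and 4 of these lay above every vehicle liver, which read 10.39, 10.04, 10.50, 10.84 and 9.26. Its difference was 0.84 (95% interval 0.07 to 1.61, adjusted p 0.458). Without the low-SD arrays, 2 of them in the vehicle group, the differences were 0.51 for Cyp2b1 and 0.47 for Cyp2b2.

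At 24 h EPO livers read 9.34, 8.78, 9.47, 10.06 and 9.35 for Cyp2b1, and vehicle livers 8.91, 8.55, 8.45, 8.35 and 9.34. The EPO livers were higher on average and the groups overlapped, with a difference of 0.68 (95% interval -0.21 to 1.56, adjusted p 0.525). At 7 days the difference of Cyp2b1 was -0.45 (-1.33 to 0.43) and that of Cyp2b3 was -0.18 (-0.32 to -0.03, adjusted p 0.856).

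At 72 h with EPO, 5 of 6 members were lower on average than with vehicle. Cyp2b15 was lower than with vehicle by 0.29 (95% interval of the difference -0.50 to -0.09, adjusted p 0.109), with 4 of 5 EPO livers below every vehicle liver. Cyp2b12 differed by -0.21 (adjusted p 0.153), also with 4 of 5 below. Without EPO 72 h animal 1 the difference of Cyp2b15 was -0.38 and passed (adjusted p 0.0169). Cyp2b2 differed by -0.59 (95% interval -1.36 to 0.18) and Cyp2b1 by 0.42 (-0.47 to 1.30). Without the low-SD arrays, 2 of them in the vehicle group, all 6 members were lower on average. Cyp2b1 then differed by -0.17 (-1.18 to 0.83, limma adjusted p 0.948) and Cyp2b2 by -0.96 (-1.85 to -0.06, adjusted p 0.428).

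EPO and anakinra were then compared with each other at 72 h. There 3 of 6 members were lower in EPO livers and passed, beside 1.94% of all genes in either direction and 0.2% in this direction. All 6 differences were negative, with a median of -0.41 beside -0.01 over all genes. The 3 that passed were Cyp2b2, Cyp2b12 and Cyp2b15. Cyp2b2 and Cyp2b15 varied together between animals (r = 0.65), so their calls are not separate results. Whether probes of the members share signal was not tested.

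Cyp2b2 in EPO 72 h livers was 10.80, 8.25, 10.54, 8.75 and 9.75, a mean of 9.62 ± 1.11 (SD, n = 5), beside 11.05 ± 0.18 (SD, n = 5) with anakinra. The EPO livers were scattered while the anakinra livers were close together, and 4 of 5 EPO livers lay below every anakinra liver. The difference was -1.43 (SE 0.38, 95% interval -2.20 to -0.65), which is 2.69-fold lower, with an adjusted p of 0.0338 in limma and an exact 2-sided permutation p of 0.0159. The call was lost when any of 7 of the 10 livers was left out. Without EPO animal 2, 4 or 5 the difference was -1.08, -1.21 or -1.46 (adjusted p 0.249, 0.156 and 0.0528). Without anakinra animal 1, 2, 3 or 5 it was between -1.43 and -1.38 (adjusted p 0.0725 to 0.0809).

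Cyp2b15 in EPO 72 h livers was 6.62, 6.02, 6.38, 6.25 and 6.13, and in anakinra livers 6.63, 6.87, 6.83, 6.62 and 6.68. The groups did not overlap, although the highest EPO liver came within 0.01 of the lowest anakinra liver. All these EPO values lay below the medians of their arrays. The mean level of Cyp2b15 was at percentile 36.9 of all genes. The difference was -0.45 (SE 0.10, 95% interval -0.65 to -0.24, adjusted p 0.00624), and leaving out each of the 10 livers in turn kept it past the threshold, with adjusted p at most 0.0499. Fitted on these 2 groups alone, its adjusted p was 0.0915.

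Cyp2b12 was 4.86, 5.03, 5.11, 4.91 and 4.91 with EPO and 5.24, 5.24, 5.22, 5.37 and 5.24 with anakinra, again without overlap. Its difference was -0.30 (SE 0.08, 95% interval -0.47 to -0.13, adjusted p 0.0452), and 9 of the 10 fits that left out 1 liver lost the call, with differences of -0.32 to -0.27 and adjusted p of 0.0648 to 0.119. The exception was the fit without EPO animal 3. With the replicate number as a block the adjusted p was 0.0563. The call was also lost with array weights, with all probes adjusted together and with arrays scaled or shifted to 1 median. The Cyp2b12 values were also low for these arrays, below the median of every array.

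The remaining 3 genes did not pass between EPO and anakinra at 72 h in the main fit. Cyp2b21 differed by -0.37 (95% interval -0.61 to -0.14, adjusted p 0.0848) with 4 of 5 EPO livers below every anakinra liver and 1 above. It passed with array weights (-0.45, limma adjusted p 0.00863) and without EPO animal 1 (-0.50, 0.00309). Cyp2b3 differed by -0.18 (-0.33 to -0.04, adjusted p 0.297) with all 5 below. Cyp2b1 differed by -0.68 (-1.57 to 0.20, adjusted p 0.687) with 2 of 5 below. At 24 h and 7 days 0 of 6 members passed between EPO and anakinra, beside 0.0207% and 0.441% of all genes, with 0 and 1 of 6 under an unadjusted p of 0.05 in limma.

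Against sham, EPO 72 h livers had 2 of 6 members lower and past the threshold, beside 3.46% of all genes in either direction and 0.717% in this direction. These livers also enter the comparison with anakinra, so the results are not separate. Cyp2b12 was -0.31 (95% interval -0.47 to -0.14, adjusted p 0.0269) and Cyp2b15 was -0.37 (-0.57 to -0.16, adjusted p 0.0269), each with 4 of 5 EPO livers below every sham liver. The Cyp2b12 call was lost without EPO animal 1 (-0.28), 4 (-0.29) or 5 (-0.29) or sham animal 5 (-0.24), with adjusted p from 0.0597 to 0.132. That of Cyp2b15 was lost without EPO animal 2 (-0.30), 4 (-0.36) or 5 (-0.33) or sham animal 1 (-0.33), 4 (-0.35) or 5 (-0.34), with adjusted p from 0.0549 to 0.159. Cyp2b2 was -1.07 (-1.84 to -0.30, adjusted p 0.128), and without EPO animal 1, its highest liver, it was -1.36 (adjusted p 0.0291). Cyp2b1 was -0.81 (-1.69 to 0.08, adjusted p 0.436). Anakinra livers had 0 of 6 members past the threshold against sham at each time, beside 0.193%, 0.11% and 1.83% of all genes at 24 h, 72 h and 7 days, and 0 of 6 under an unadjusted p of 0.05 in limma. EPO 24 h livers likewise had 0 of 6, beside 0.434% of all genes, and 0 of 6 under that unadjusted p.

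**Figure D3:**
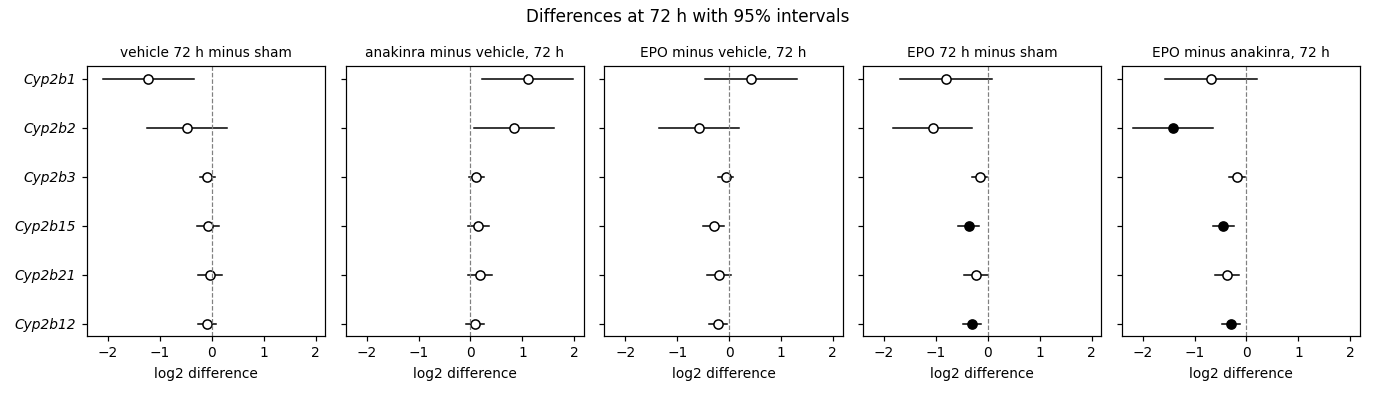
Log2 differences of the 6 Cyp2b genes in 5 comparisons at 72 h, as points with 95% intervals, filled where the adjusted p was under 0.05 and open where it was not. Filled points are Cyp2b12 (-0.31) and Cyp2b15 (-0.37) for EPO minus sham, and Cyp2b2 (-1.43), Cyp2b15 (-0.45) and Cyp2b12 (-0.30) for EPO minus anakinra.

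Cell markers moved with EPO at 72 h. Red cell genes rose in 8 of 8 measured markers against anakinra, with the mean log2 level of the list at 9.25 to 11.09 in EPO livers, 6.78 to 9.13 in anakinra livers and 7.06 to 7.91 in sham livers. Neutrophil markers rose in 4 of 6 (5.87 to 7.07 against 5.30 to 5.58), Kupffer cell and macrophage markers in 2 of 8 (9.42 to 9.63 against 8.78 to 9.33) and endothelial markers in 1 of 4. None of the 8 hepatocyte markers passed, and their mean level was 13.05 to 13.27 with EPO and 13.11 to 13.20 with anakinra. Lymphocyte, stellate and bile duct markers, and those of pancreas, muscle and skin, had none that passed. Against sham, EPO 72 h livers had 7 of 8 red cell, 4 of 6 neutrophil, 3 of 8 Kupffer cell, 2 of 6 lymphocyte and 2 of 4 endothelial markers higher. Against vehicle at 72 h they had 7 of 8 red cell, 7 of 8 Kupffer cell, 4 of 6 neutrophil, 2 of 6 lymphocyte and 1 of 4 endothelial markers higher. Of all genes, 1.94% passed in either direction against anakinra, 3.46% against sham and 2.72% against vehicle. The red cell level was 9.37 to 10.58 in EPO 7-day livers. The part of these markers in the Cyp2b differences was not tested.

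Among the 38 CAR and PXR targets, 2 fell and none rose between EPO and anakinra at 72 h, namely the steroid hydroxylase Cyp2a2 (-0.24, adjusted p 0.0253) and the glutathione transferase Gstm2 (-0.31, 0.0486). The list median was -0.14 beside -0.01 over all genes. Of all genes, 1.94% passed in this comparison in either direction and 0.2% were lower with EPO. None of 47 measured regulators of CAR and PXR signalling passed. Of 27 inflammatory genes 3 rose and none fell, the heme oxygenase Hmox1 (0.79), interleukin-1 beta Il1b (0.50) and the interleukin-6 co-receptor Il6st (0.40). Cyp2b1 and Cyp2b2 are known to be strongest around the central vein, and 0 of 18 other pericentral and 0 of 19 periportal genes passed here, with list medians of -0.20 and -0.11. Against sham, EPO 72 h livers had the pericentral genes Oat (ornithine aminotransferase, -1.07) and Gulo (the last enzyme of vitamin C synthesis, -0.59) and the periportal Ass1 (argininosuccinate synthase, -0.26) lower.

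Cyp2b3 changed with time after EPO. It was 12.48, 12.63, 12.55, 12.65 and 12.44 at 24 h and 12.48, 12.33, 12.34, 12.22 and 12.29 at 72 h. At 7 days it was 12.15, 12.28, 12.22, 12.22 and 12.33. Every 7-day liver lay below every 24 h liver, and the means were 12.55 ± 0.09, 12.33 ± 0.09 and 12.24 ± 0.07 (SD, n = 5 each). The limma F test over the 3 times passed for Cyp2b3 (F = 9.40, adjusted p 0.0223) and for no other member, 1 of 6 beside 2.41% of all genes. An unadjusted p under 0.05 was reached by 5 of 6 members in limma, and with array weights Cyp2b2 and Cyp2b15 passed beside Cyp2b3 (adjusted p 0.0471, 0.0101 and 0.00268). Whether members differed from each other in this was not tested. It was lost without EPO 24 h animal 2, 3 or 4 (F = 6.92, 7.995 and 6.82) or EPO 7-day animal 1 (F = 7.76), with adjusted p from 0.0501 to 0.0949. Without EPO 72 h animal 1, Cyp2b15 (F = 10.07, adjusted p 0.0129) and Cyp2b2 (F = 7.56, adjusted p 0.0453) passed as well.

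At 7 days Cyp2b3 was lower than sham by 0.25 (95% interval of the difference -0.39 to -0.10), with all 5 EPO livers below every sham liver and an adjusted p of 0.05003 that lay just above the threshold. It passed without EPO animal 2 (-0.26, adjusted p 0.0459). In the same comparison 7 of 8 red cell markers were higher and 1 of 8 hepatocyte markers was lower. The mean hepatocyte marker level was 12.98 to 13.18 in EPO 7-day livers and 13.16 to 13.22 in sham livers, and the part of these markers was not tested. No member passed in that comparison, beside 2.86% of all genes, and 2 of 6 had an unadjusted p under 0.05 in limma. Cyp2b1 there differed by -1.05 (-1.93 to -0.16, adjusted p 0.182). The same livers had Alas1, the first enzyme of the synthesis of heme, which every P450 carries, at -0.65 (adjusted p 0.0314) and the glucocorticoid receptor Nr3c1 at -0.64 (adjusted p 0.00952). Vehicle livers at 7 days differed from sham by -0.54 for Alas1 and -0.52 for Nr3c1 (limma adjusted p 0.739 and 0.609), and EPO livers from vehicle livers by -0.11 and -0.12 (adjusted p = 1 for both). Of 47 regulators 4 rose and 2 fell there, the AMP kinase subunit Prkaa2 (-0.56) with Nr3c1 falling and the protein kinase C gene Prkca (0.55) and its anchor Rack1 (0.37) among those that rose. Over time, vehicle and anakinra gave 0 of 6 members each, beside 0.0689% and 0.00689% of all genes. The change of the EPO effect with time passed for 0 of 6, beside 0.214%, with Cyp2b3 at an unadjusted p of 0.0173 and an adjusted p of 0.479. That of the anakinra effect passed for 0 of 6, beside 0%.

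**Figure D4:**
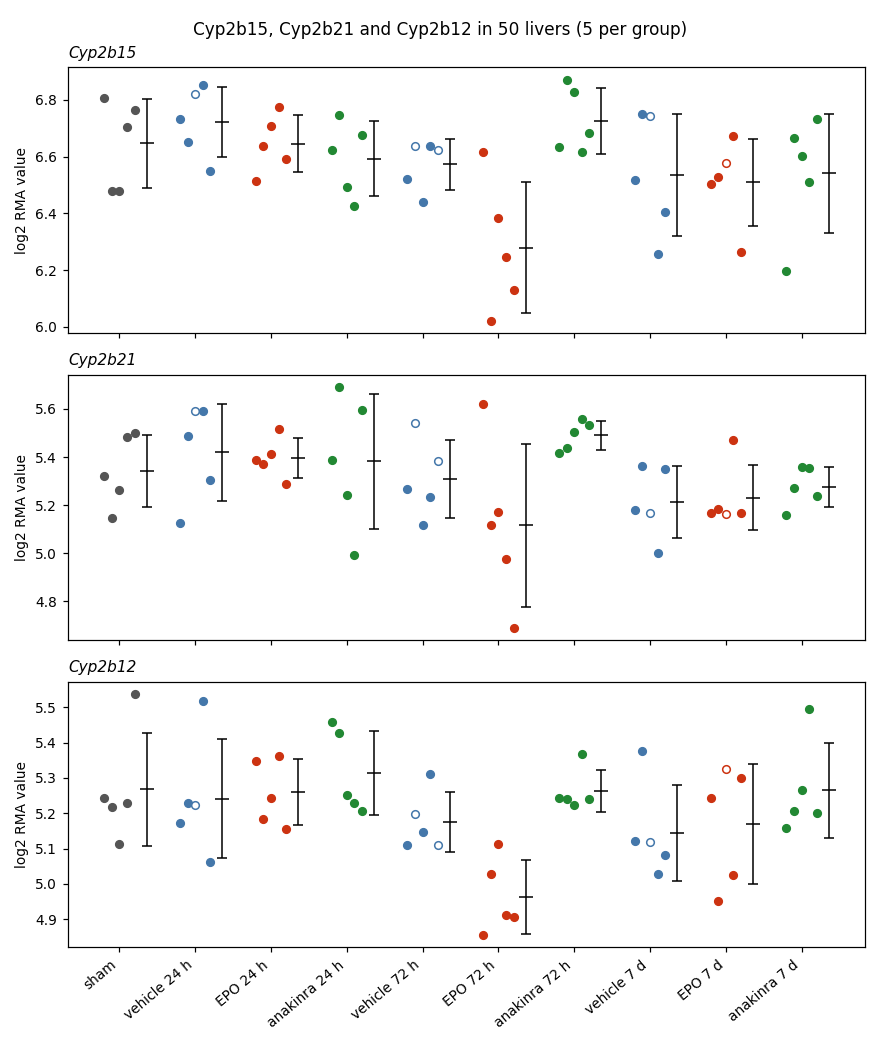
The log2 value of Cyp2b15, Cyp2b21 and Cyp2b12 in every liver, by group, with the mean and SD of 5 animals and open circles for the 5 arrays of lowest SD. The EPO 72 h group has the lowest mean for each gene, 6.28 for Cyp2b15, 5.12 for Cyp2b21 and 4.96 for Cyp2b12.

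In the order of the group means, EPO 72 h was lowest for Cyp2b12 and Cyp2b15. The gap to the group next above was larger than the SD between animals. It was 0.18 against 0.13 for Cyp2b12 (next group vehicle 7 days) and 0.23 against 0.16 for Cyp2b15 (next group EPO 7 days). The other 8 neighbouring gaps of each gene were smaller than its SD. These gaps come from a sorted order and reuse values tested above, so they are a description and no separate result.

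Members also varied together from animal to animal. After each group's mean was removed, all 15 pairs of members had a positive correlation over the 50 livers, and 4 pairs passed among 63 relations adjusted together. Cyp2b1 and Cyp2b2 had r = 0.65 and rho = 0.54 (permutation p 1e-05, the smallest that 1e+05 resamples give; adjusted p 0.000315 for r and 0.00126 for rho), with r = 0.56 without the 2 livers farthest from the median and 0.61 without the low-SD arrays. Cyp2b2 and Cyp2b15 had r = 0.65 and rho = 0.62 (permutation adjusted p 0.000315 and 0.00063), with 0.56 without the 2 farthest livers. Cyp2b15 and Cyp2b21 had r = 0.61 and rho = 0.60, with 0.53 without the farthest, and Cyp2b2 and Cyp2b21 had r = 0.50 and rho = 0.51, with 0.54 (permutation adjusted p 0.000315 and 0.0029 for r). Cyp2b2 and Cyp2b3 had r = 0.34, which did not pass (permutation adjusted p 0.0829), and rho = 0.50, which did (0.00178). Near-identical copies can share signal on a probe, and how far that enters these correlations was not tested.

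Of the 8 regulator and partner genes set against each member, only the reductase gene Por passed by r, and only with Cyp2b1. Its r was 0.58 and rho 0.59 (permutation adjusted p 0.000315 and 0.00063), with r = 0.56 without the 2 farthest livers and 0.64 without the low-SD arrays. Cyp2b1 with the CAR gene Nr1i3 had r = 0.36 (permutation adjusted p 0.0713) and with Rxra r = -0.39 (0.0528), and neither passed. Cyp2b12 with Nr3c1 had r = -0.37, which did not pass (permutation adjusted p 0.0695), and rho = -0.40, which did (0.0404). Cyp2b1 with the PXR gene Nr1i2 had r = -0.06, with the heme enzyme Alas1 0.32, with the liver factor Hnf4a 0.22 and with Cebpa -0.03.

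**Figure D5:**
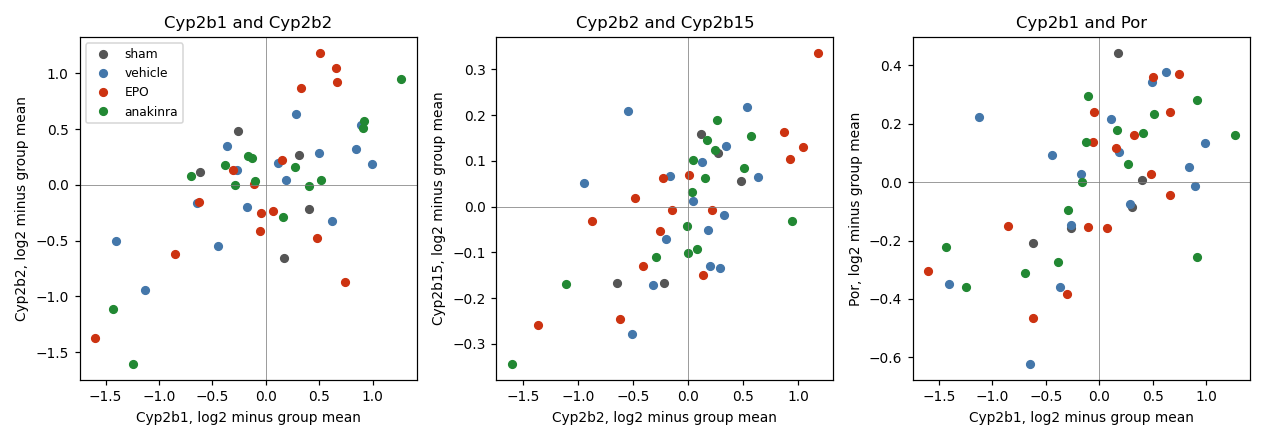
Deviations from the group mean on the log2 scale in 50 livers, for Cyp2b1 and Cyp2b2, Cyp2b2 and Cyp2b15, and Cyp2b1 and Por, each point 1 liver coloured by treatment. The correlations are 0.65, 0.65 and 0.58.

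Genes that moved most like the inducible pair were listed over the same 50 livers, with no test. For Cyp2b1 the 5 highest r were Cyp2b2 (0.65), the epoxide hydrolase Ephx1 (0.60), the steroid hydroxylase Cyp3a23-3a1 (0.60), the RNA polymerase I subunit Polr1b (0.59) and the GTPase exchange factor Rap1gds1 (0.59). For Cyp2b2 they were Cyp2b15 (0.65), Cyp2b1 (0.65), the sterol sensor partner Insig2 (0.57), the carboxylesterase Ces1f (0.54) and Tsr3 (0.53). The closest to Cyp2b3 were Tmem86b (0.63), Tspan31 (0.63), Mzt2b (0.63), Emc4 (0.62) and Scamp4 (0.62). Cyp2b21 was closest to Mgat5b (0.62), Cyp2b12 to St6galnac3 (0.54) and Cyp2b15 to Cyp2b2. Over the 10 group means the closest was Ggcx (0.97) for Cyp2b1, Cyp2b21 (0.96) for Cyp2b2, Rtn3 (0.96) for Cyp2b3, Cited2 (0.96) for both Cyp2b21 and Cyp2b15 and Shmt2 (0.95) for Cyp2b12. These values share arrays and a single normalization.

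The receptor genes Nr1i3, Nr1i2 and Rxra passed in none of the 18 comparisons. Nr1i3 was 8.80 ± 0.48 in sham livers and 9.15 ± 0.29 against 8.55 ± 0.49 (SD, n = 5 each) in anakinra and vehicle livers at 72 h, a difference of 0.60 (95% interval 0.14 to 1.06, adjusted p 0.454). Of the low-SD arrays, 2 are in that vehicle group. Between EPO and anakinra at 72 h Nr1i3 differed by -0.44 (-0.91 to 0.02, limma adjusted p 0.538), with 4 of 5 EPO livers below every anakinra liver. Nr1i2 was 9.98 ± 0.13 in vehicle 24 h livers and 9.63 ± 0.26 in sham livers (SD, n = 5 each), a difference of 0.35 (0.06 to 0.64, adjusted p 0.239). Rxra differed by 0.30 there (0.13 to 0.46, limma adjusted p 0.0810), with all 5 vehicle livers above every sham liver.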

How the data were processed

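The authors' deposited values are log2 values from robust multi-array averaging (RMA) with oligo, per the submitters' processing notes, so they are background-corrected and quantile-normalized intensities per transcript cluster. Tool versions, dosing times and the time of day of collection were not given in the sources used here. Arrays give no counts, and their number limits the precision. Of 29214 probes, 15310 named 1 gene, 323 several and 13581 none, and each of 14506 genes was read from its probe of highest mean. Gene positions and upstream sequences are RefSeq's (GRCr8), and no scanner values or probe sequences were used here. limma 3.58.1 in R 4.3.3 fitted 10 group means to all 50 arrays (40 residual degrees of freedom), with Benjamini-Hochberg adjustment over all genes within each of 18 comparisons and 6 F tests. The threshold was an adjusted p under 0.05, and the code was tested on simulated data. Correlations used 1e+05 permutations. All 6 Cyp2b genes are described, then up to 4 genes of each of 5 lists by smallest p among those that passed, 8 regulator and partner genes, and the genes of highest correlation. The members and lists were chosen with earlier results of these data known. The alternatives were array weights, a trended prior, filters, other scalings, other probe rules, the replicate block, fewer arrays and only the groups compared.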

Additional observations from a re-analysis of the deposited data

Results flagged for a closer look

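In 4 of 60 combinations of gene and group, 1 liver stood far from the other 4. Both the lowest and the highest liver were checked, and chance gives about 3 over both directions, or 1 in 20. All 4 livers found were the highest of their group. Cyp2b2 was 11.87 in EPO 24 h animal 4, with the next liver at 10.67. Cyp2b21 was 5.47 in EPO 7 days animal 4, with the next at 5.19. Cyp2b12 was 5.37 in anakinra 72 h animal 4 (next 5.24) and 5.38 in vehicle 7 days animal 2 (next 5.12). The Cyp2b2 liver also had the highest Cyp2b1 of its group, 10.06.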

How the results depend on the processing

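No result past the threshold changed direction under an alternative run. Without the 5 low-SD arrays, Cyp2b1 for EPO against vehicle at 72 h, which did not pass, went from 0.42 to -0.17. Members past the threshold for EPO against anakinra at 72 h numbered 3. They numbered 1 when only genes of higher level were kept (7679 genes, 3 of them members). Cyp2b12 and Cyp2b15 were not kept there, and Cyp2b2 still passed (limma adjusted p 0.0328). The count was 1 when all probes were adjusted together and 0 when only the groups compared were fitted. With 1 liver left out it was 1 to 3. With array weights it stayed at 3, with Cyp2b21 in place of Cyp2b12. For EPO 72 h against sham the members past the threshold numbered 2, Cyp2b12 and Cyp2b15. The higher genes left both out, so the 0 found there was fixed by the filter. The count was 1 with arrays scaled to 1 median and SD and 0 with only the groups compared. It was 0 to 3 with 1 liver left out. For EPO 7 days against sham the count rose from 0 to 1 with array weights, a trended and robust prior, the higher genes, the mean of all probes, arrays shifted to 1 median, only the groups compared, or 1 liver left out (EPO animal 2). The member was Cyp2b1 with only the groups compared and Cyp2b3 in the others. For EPO against vehicle at 72 h it rose to 1 without EPO animal 1. For the F test over all groups it rose from 0 to 2 with array weights, to 1 with scaled or shifted arrays, and to 1 to 3 in 5 fits that left out 1 liver. For the F test over EPO times it moved from 1 to 3 with array weights, to 0 with only the groups compared and to 0 to 3 with 1 liver left out. The cause of these shifts was not tested, beyond the fewer genes or arrays that some of the settings use.

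Counts over all genes moved more than 1.5 times in some settings. EPO 72 h against sham gave 502, and 1011 with array weights, 302 with only the groups compared, 318 without sham animal 2 and 279 without EPO animal 2. EPO against anakinra at 72 h gave 281, and 532, 76 and, without anakinra animal 3, 177. The F test over EPO times gave 350, and 949 with weights and 222 with only those groups. Cyp2b2 between EPO and anakinra had adjusted p of 0.0531 with the trended prior, 0.0595 with all probes and 0.129 with only those groups.

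Whether equal replicate numbers pair the animals was not settled, and the main fit used no pairing. In 0 of 18 comparisons did every same-number pair correlate above 0.1 (range -0.26 to 0.62). The pairs above 0.1 numbered from 0, as in vehicle 7 days against sham, to 4 of 5. The 4 were reached in EPO against vehicle at 7 days and in anakinra against vehicle at 24 h. With the replicate block, 2 of 6 members passed for EPO against anakinra at 72 h in place of 3, 2 for EPO against sham, and 279 and 510 of all genes. The block changed no other call of a member. Cyp2b12 and Cyp2b21 lay below the median of every array, and no detection call was used here. The shared sham group has no time-matched animals.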
